A study of Mus musculus with 20 samples.

Results

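The circadian clock genes examined here were 10 of the 21897 protein-coding genes in the count table of mouse cerebellum, namely Per1, Per2, Per3, Dbp, Tef, Hlf, Nr1d1, Nr1d2, Arntl and Npas2. They were listed by name, as core clock and output genes of both phases, and their symbols were matched to Ensembl gene identifiers. The list was chosen by function, but also selected on measured values, since the levels of Per2 (higher) and Npas2 (lower) in treated against untreated WT mice of the 9-week cohort were in view, so the values of that comparison are given as a description without a test. All 10 had enough reads to be tested in each comparison. The cerebella of 20 C57BL/6J mice were sequenced, with 1 mouse in each library, to ask whether an adeno-associated virus (AAV) carrying a short hairpin RNA against expanded CAG repeats, shA4, alters the transcriptome of WT mice or moves that of SCA7 mice. SCA7 is spinocerebellar ataxia type 7, an inherited degeneration of cerebellum and retina. The early cohort, labelled 9 weeks, held 3 WT mice that received AAV-shA4 and 3 that were untreated. The late cohort held 5 SCA7 140Q/5Q knock-in mice given AAV-shA4, 5 knock-in mice given a scrambled hairpin (AAV-shSCR) and 4 untreated WT mice, labelled 25 weeks. The start of this count of weeks is not on the labels, and the study's text counts from the injection, so the labels are used here as names of the cohorts and not as ages. The knock-in mice were heterozygous, with a mutant and a normal allele of Atxn7. The virus was of serotype PHP.eB, was given into the retro-orbital sinus of young mice, and also carried eGFP under the CMV promoter, while the hairpin was driven by the H1 promoter. Per the study, untreated mice received saline, mice of a group were injected in the same session, and the virus reached Purkinje cells (PCs) well and granule cells scarcely. WT mice with AAV-shSCR and untreated SCA7 mice were not analysed here, so the genotype and the virus cannot be told apart between SCA7 and WT mice. The mice lived in a 12 h light/dark cycle, and the hour at which they were killed is not given in the sources used here. The study names the AAV-shSCR-treated and WT mice of the 25-week cohort as males. The sex of the 9-week mice is not given in those sources.

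In the clock of mammalian cells, the activators ARNTL (also called BMAL1) and CLOCK or NPAS2 bind E-box elements and switch on the Per, Cry, Nr1d and Dbp genes. PER and CRY proteins then inhibit the activators, while the REV-ERB proteins encoded by Nr1d1 and Nr1d2 repress Arntl through elements that the ROR activators also use. Arntl and Npas2 therefore peak at another time of day than Dbp, Nr1d1 and the Per genes. DBP, TEF and HLF are activators of the PAR bZIP family that bind D-box elements and carry the rhythm to output genes, and cells of the cerebellum run such a clock.

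The promoter stretches below were not tested for binding. They match the letters of an E-box, a D-box or a ROR element, or in Hlf a cAMP element. They are RefSeq sequences (assembly GRCm38.p6, the build of the count table), read 5′ to 3′ on the strand of the gene, with the element in capitals. Windows from 250 bases before to 50 after an annotated start were found for 9 of the 10 members, and Per2 had no entry in the table.
Per1, chr11:69098743-69098828, plus strand: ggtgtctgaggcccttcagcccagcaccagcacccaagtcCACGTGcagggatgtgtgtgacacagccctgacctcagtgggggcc
Tef, chr15:81802506-81802591, plus strand: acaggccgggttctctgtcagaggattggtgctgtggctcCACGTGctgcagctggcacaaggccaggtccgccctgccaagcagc
Nr1d1, chr11:98775360-98775445, minus strand: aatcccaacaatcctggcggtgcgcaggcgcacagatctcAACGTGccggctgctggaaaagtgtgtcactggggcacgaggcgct
Per3, chr4:151044776-151044910, minus strand: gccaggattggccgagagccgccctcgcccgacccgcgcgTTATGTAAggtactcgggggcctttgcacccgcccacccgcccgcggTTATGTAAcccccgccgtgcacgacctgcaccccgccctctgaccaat
Hlf, chr11:90390879-90390966, minus strand: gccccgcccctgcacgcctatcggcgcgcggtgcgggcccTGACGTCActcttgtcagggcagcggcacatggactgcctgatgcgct
Arntl, chr7:113207502-113207560, plus strand: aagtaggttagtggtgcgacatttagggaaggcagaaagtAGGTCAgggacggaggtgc
Nr1d2, chr14:18239138-18239223, minus strand: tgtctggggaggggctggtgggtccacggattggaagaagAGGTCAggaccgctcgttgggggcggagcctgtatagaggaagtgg
Ciart, chr3:95882227-95882384, minus strand: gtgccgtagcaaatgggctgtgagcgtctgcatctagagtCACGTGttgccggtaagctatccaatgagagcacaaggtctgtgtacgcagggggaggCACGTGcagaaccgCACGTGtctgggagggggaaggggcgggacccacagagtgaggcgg
The capitals mark the E-box CACGTG in Per1, Tef and Ciart, the E-box variant CACGTT on the other strand in Nr1d1 (read as AACGTG), the D-box TTATGTAA in Per3, the cAMP element TGACGTCA in Hlf and the core AGGTCA of the ROR and REV-ERB element in Arntl and Nr1d2. Both strands were searched, and none of these motifs contains another. The stretch of Per1 also holds AGGTCA on the other strand, at -137, which is not in capitals. Of 32851 such windows in the table, 7.15% held CACGTG, 4.68% CACGTT, 0.938% TTATGTAA, 1.79% TGACGTCA and 16.3% AGGTCA. In Per3 the D-box stood at 2 positions, -205 and -158 from the start, and in Ciart, a repressor of the clock that is no member, the E-box stood at 3 positions between -116 and -44. No match was found in the windows of Dbp and Npas2, which says only that these letters are not in these windows.

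Between 36245752 and 49212593 reads were counted on genes in each 9-week library and between 31465586 and 54570503 in each 25-week library. At 9 weeks the depth of the groups did not overlap, with 36245752 to 39208298 reads in AAV-shA4-treated and 47455917 to 49212593 in untreated mice. Tef had at least 12809 reads in each library and Npas2, the lowest member, 149 to 422. Atxn7, the targeted gene, ranged from 44.4 to 51.7 counts scaled to library size (CPM, with TMM factors) in AAV-shA4-treated and from 45.6 to 53.4 in AAV-shSCR-treated SCA7 mice, and from 45.7 to 50.2 in WT mice of the 25-week cohort. The reads of both Atxn7 alleles are pooled in these values, and they do not separate the labels. The 5 markers of PCs (Pcp2, Calb1, Itpr1, Car8 and Ppp1r17) had at least 6233 reads in every library.

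Levels differed widely between the members. In untreated WT mice of the 25-week cohort, Nr1d1 was the highest per length of exon, at 73.1 ± 3.61 CPM per kb (SD, n = 4), followed by Tef at 50.1 ± 2.33, Nr1d2 at 33.3 ± 0.407, Hlf at 27.1 ± 0.944, Dbp at 25.1 ± 1.75 and Per1 at 21.6 ± 2.504. Lower levels were found for Per2 at 10.4 ± 1.08, Per3 at 7.62 ± 0.408, Arntl at 6.69 ± 0.366 and Npas2 at 1.25 ± 0.196 CPM per kb. The mice overlapped between Hlf and Dbp, between Dbp and Per1 and between Per3 and Arntl, so the order within these pairs is not beyond the spread. All other neighbours in the order were separate. Some exons overlap other genes on the opposite strand, namely 539 bases of Dbp (18.0% of its exons) with Sphk2 and 263 bases of Nr1d1 (8.55%) with Thra, and whether counting used the strand is not given in the sources used here, so reads there are uncertain.

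**Figure D1:**
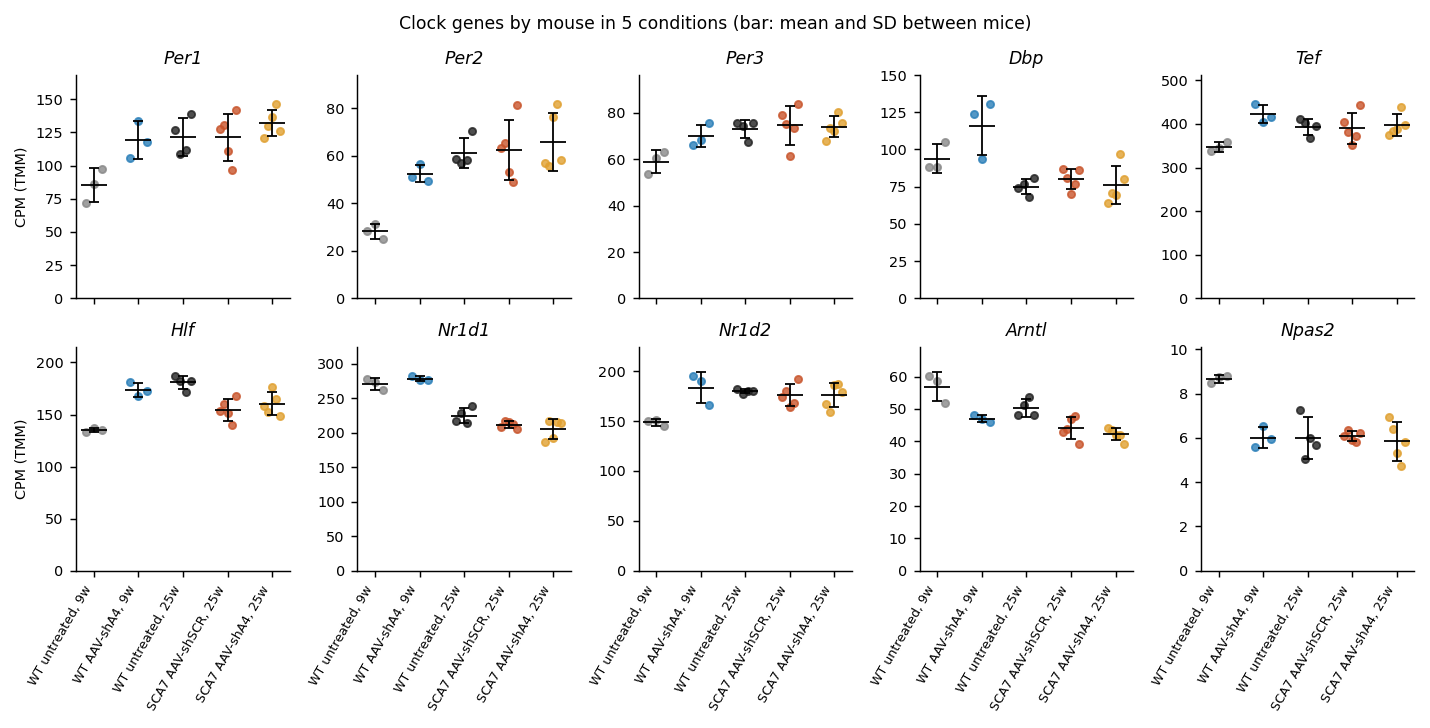
CPM (TMM) of the 10 clock genes in each of the 20 mice, by condition, with a linear axis from 0 and the mean and SD of the condition as a bar. For Per2 the 3 untreated mice of the 9-week cohort lie between 25.2 and 31.4, below the other 17 mice at 49.1 to 82.0, while for Npas2 they lie at 8.45 to 8.78, above the others at 4.73 to 7.28.

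In 4 members, Per2, Hlf, Nr1d2 and Npas2, the untreated 9-week mice did not overlap with the other 17 mice, and in 6 they did. Per2, a repressor of the clock, measured 28.3, 31.4 and 25.2 CPM in the untreated mice of the 9-week cohort and 51.3, 56.5 and 49.6 in the mice given AAV-shA4. Every AAV-shA4-treated mouse was higher than every untreated one, with a difference of 0.89 ± 0.081 on the log2 scale (SE). In the 4 untreated WT mice of the 25-week cohort Per2 was 58.9, 56.8, 58.3 and 70.6 CPM. In SCA7 mice it was 63.4, 65.4, 53.3, 49.1 and 81.5 CPM with AAV-shSCR and 56.9, 55.7, 76.3, 82.0 and 58.2 with AAV-shA4. The 3 groups of the 25-week cohort thus overlapped, and the lowest of these 14 mice was still above the untreated mice of the 9-week cohort.

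Npas2, a partner of ARNTL that can stand in for CLOCK, ran the opposite way. It was 8.45, 8.72 and 8.78 CPM in the untreated mice of the 9-week cohort and 5.57, 6.52 and 5.95 in those given AAV-shA4, a difference of -0.53 ± 0.10 (log2, SE). At 25 weeks it was 7.28, 5.04, 5.99 and 5.68 CPM in WT mice, 6.08, 6.37, 5.92, 5.80 and 6.21 with AAV-shSCR and 6.93, 6.40, 5.32, 4.73 and 5.82 with AAV-shA4. These groups overlapped, and only the untreated mice of the 9-week cohort stood above all others. Npas2 also varied with the depth of the library: its deviation from the mean of the condition correlated with that of the log2 total count over the 20 mice, with Pearson's r = 0.83 (permutation p = 0.00144, adjusted p = 0.0432 over 30 relations) and Spearman's rho = 0.71 (permutation p = 0.00532, adjusted p = 0.160). Without the 2 mice farthest from the median depth r was 0.68, and within the cohorts it was 0.86 over the 14 late and 0.35 over the 6 early mice. For the other members r with depth was negative and did not pass after adjustment. It was -0.54 for Dbp (permutation p = 0.0191, adjusted p = 0.191), -0.46 for Nr1d1, -0.38 for Per3 and Per2, and -0.27 (Tef) to -0.03 (Arntl) for the rest. Npas2 was lower in the 9-week group with fewer reads, and the part of depth in that difference was not tested. This relation was examined after the values were seen.

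At 9 weeks, 3 of the 10 members were past a fold change of 1.3, against 6.71% of the 14733 genes in this comparison, and 8 did not overlap between the groups, against 16.0%. This is the contrast that chose the list, so nothing is read from these counts. Besides Per2 and Npas2, Per1 was past the fold, at 72.1, 86.1 and 97.7 CPM in untreated and 106, 134 and 118 in AAV-shA4-treated mice (0.48 ± 0.11, log2 and SE). Of the members past the limit Per1 was the nearest to it, and of those short of it Hlf, at 0.36. Dbp and Nr1d2 differed by 0.30, Tef by 0.28 and Per3 by 0.25. Arntl was lower, at 48.0, 47.0 and 46.0 against 60.1, 58.6 and 51.8 CPM (-0.28 ± 0.062). Nr1d1 was at 282, 276 and 277 CPM against 278, 274 and 262, which overlap (0.03 ± 0.046). The median difference of the 10 members was 0.29, and that of all genes -9.9e-05. Of the 21 other clock genes, 16 were higher and 5 lower, and Ciart alone passed the fold, at 18.2, 14.8 and 18.0 CPM with AAV-shA4 against 11.96, 12.4 and 14.5 without (0.39 ± 0.11). Of the 9 lists of cell type markers, 3 had summed levels that did not overlap between these groups. Ependymal markers summed to 23.8 to 26.1 CPM with AAV-shA4 against 15.01 to 22.3 without, astroglial markers to 2591 to 2678 against 2376 to 2485 and oligodendrocyte markers to 6573 to 6896 against 7228 to 7451. Gene by gene, 2 of 4 ependymal, 1 of 4 astroglial and 3 of 5 oligodendrocyte markers did not overlap, against 16.0% of all genes. The part of these sums in the values of the members was not tested.

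The untreated WT mice of the late and early cohorts were compared next. This comparison shares the 3 untreated 9-week mice with the one above, and age, cohort, handling of the libraries and possibly sex cannot be told apart in it. Since the values of these mice chose the list, it is given without a test of the members. In it 4 of the 10 members were past a fold change of 1.3, against 12.5% of 15095 genes, and 9 did not overlap between the groups, against 33.4%, and nothing is read from these counts. Per2 was higher in the 25-week mice by 1.11 ± 0.15 (log2, SE), Per1 by 0.51 ± 0.12 and Hlf by 0.42 ± 0.056, and Npas2 was lower, at -0.52 ± 0.11. Dbp was -0.32 ± 0.12 at 25 against 9 weeks, with 74.1, 76.7, 68.4 and 80.9 CPM against 88.5, 88.1 and 105, and 0.30 with AAV-shA4 at 9 weeks. Nr1d1 was -0.27 ± 0.048, with 218, 228, 215 and 239 CPM against 278, 274 and 262. For both genes every untreated WT mouse of the 25-week cohort was below every untreated mouse of the 9-week cohort. Of the 21 other clock genes, 5 were higher and 1 lower (edgeR adjusted p under 0.05), against 24.2% of all genes in either direction. The gene lower in the 25-week mice was Cirbp (-0.36 ± 0.10). The test used the same 3 untreated 9-week mice that chose the list, so nothing is read from these counts. The sums of several marker lists moved with this comparison. The summed oligodendrocyte markers were 5118 to 6094 CPM against 7228 to 7451 in the 9-week mice, with 4 of 5 called lower by edgeR, against 5.27% of all genes called in either direction. Granule cell markers summed to 2764 to 3235 against 3451 to 3995 CPM (1 of 4 called lower). Meningeal markers summed to 100.2 to 111 against 119.5 to 145, with 1 of 4 called higher and 1 called lower. PC markers summed to 7769 to 8749 against 7075 to 7589, but 0 of 5 were called and their median difference was 0.01. Of these, 4 were higher, with Itpr1 at a mean of 4477 against 3660 CPM, and 1 was lower, Pcp2, at 551 against 605. Microglial markers summed to 99.6 to 115 against 93.3 to 99.01, with 0 of 4 called. The part of these shifts in the values of the members was not tested.

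The SCA7 mice addressed whether the clock genes differ in the disease model. The 9-week comparison did not use these mice, but earlier results on them were known when the list was chosen. By the adjusted p alone, 2 of 10 members, Hlf and Arntl, were lower in SCA7 than in WT mice, by less than the fold limit, against 15.5% (AAV-shSCR) and 13.6% (AAV-shA4) of 14862 genes. This is a share near the background. The other members, the Per genes, Dbp, Tef, Nr1d1, Nr1d2 and Npas2, did not pass, and Nr1d1 was close to the limit with AAV-shA4. Hlf, the PAR bZIP activator, was 186.9, 182.1, 171.96 and 182.3 CPM in the WT mice and 153, 160.3, 151, 140.03 and 168.1 in AAV-shSCR-treated SCA7 mice. Every SCA7 mouse of this group was below every WT mouse, and Hlf fell by 0.23 on the log2 scale (SE 0.052, edgeR adjusted p = 0.00657). With AAV-shA4 it was 159, 152, 177, 165 and 149 CPM, and 1 of these mice was above the lowest WT mouse. Hlf fell by 0.17 in this group (SE 0.052, edgeR adjusted p = 0.0335), a call that rests on single libraries: its adjusted p ranged from 0.00849 to 0.0810 when 1 mouse was left out, and was above 0.05 in 6 of 9 cases, namely without AAV-shA4 replicate 1 (0.0557), 2 (0.0713) or 5 (0.0810), or without WT replicate 1 (0.0796), 2 (0.0765) or 4 (0.0782).

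Arntl, the activator at the core of the loop, was 48.2, 51.2, 53.8 and 48.0 CPM in WT mice and 44.0, 43.5, 42.0, 42.0 and 39.2 in SCA7 mice given AAV-shA4. The groups did not overlap, and Arntl fell by 0.26 on the log2 scale (SE 0.054, edgeR adjusted p = 0.00417, and 0.00474 to 0.0211 with 1 mouse left out). With AAV-shSCR it was 42.9, 43.9, 46.8, 47.7 and 39.2 CPM, again below every WT mouse, and fell by 0.19 (SE 0.054, edgeR adjusted p = 0.0248). That adjusted p was above 0.05 in 4 of 9 cases with 1 mouse left out, namely without AAV-shSCR replicate 1 (0.0517) or 5 (0.0553) and without WT replicate 2 (0.0634) or 3 (0.0893). Nr1d1, a REV-ERB repressor of Arntl, was 218, 228, 215 and 239 CPM in WT mice, 208, 217, 216, 213 and 205 with AAV-shSCR (-0.09 ± 0.045, edgeR adjusted p = 0.231) and 187, 217, 193, 216 and 215 with AAV-shA4 (-0.13 ± 0.045, edgeR adjusted p = 0.0718). The latter passed with the replicate block (edgeR adjusted p = 0.0431), by DESeq2 (0.0428) and without AAV-shA4 replicate 2 (edgeR 0.0461). Nr1d2, the other REV-ERB, differed by -0.03 in both (95% interval -0.14 to 0.07).

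By the full rule, 0 of the 10 members were called in either SCA7 group, by edgeR and by DESeq2, against 4.02% (AAV-shSCR) and 3.45% (AAV-shA4) of 14862 genes. Without adjustment, 2 members had a p under 0.05 with AAV-shSCR, against 28.7%, and 3 with AAV-shA4, against 26.6%. The groups did not overlap for 2 members with AAV-shSCR, against 16.8%, and for 1 with AAV-shA4, against 13.4%. The median of the 10 differences was -0.01 in both comparisons, and that of all genes 0.00 and 0.01. These comparisons share the 4 WT mice and are not independent of each other. For the members that did not pass, the 95% intervals held differences of up to 0.32 on the log2 scale for Per2 with AAV-shSCR (-0.26 to 0.32) and 0.39 with AAV-shA4 (-0.19 to 0.39), the widest of the list. For Tef they reached from -0.14 to 0.11 and from -0.12 to 0.13.

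Other genes moved with the SCA7 groups. AAV-shSCR-treated mice had all 5 PC markers called lower and AAV-shA4-treated mice 4 of them. Their summed level was 5591 to 6279 and 5647 to 6655 CPM in the SCA7 groups against 7769 to 8749 CPM in WT mice. The 5 oligodendrocyte markers summed to 3681 to 4432 and 4073 to 4710 CPM against 5118 to 6094. Astroglial markers summed to 2032 to 2194 CPM with AAV-shSCR and 1983 to 2377 with AAV-shA4 against 2237 to 2397, without overlap in the former. In these bulk libraries fewer cells of a type and less RNA per cell cannot be told apart. The part of these shifts in the values of Hlf and Arntl was not tested. Within conditions, the correlation of Hlf with the summed PC markers was r = 0.51 (permutation p = 0.0525, adjusted p = 0.369 over 30 relations and rho = 0.43, permutation p = 0.0979, adjusted p = 0.473, and r = 0.45 without 2 mice) and that of Arntl was r = -0.17 (permutation p = 0.490, adjusted p = 0.852 and rho = -0.12, permutation p = 0.646, adjusted p = 0.936, and r = -0.11 without 2 mice).

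**Figure D2:**
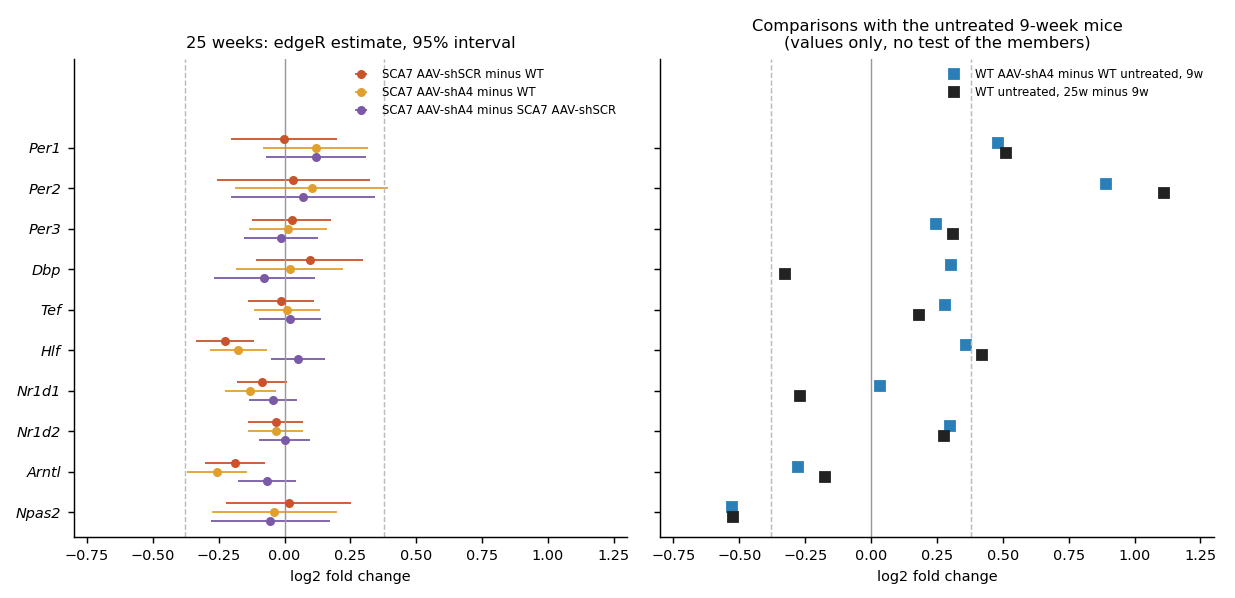
Log2 fold change of the 10 clock genes, with the 3 comparisons of 25-week mice on the left (edgeR estimate and 95% interval) and the 2 comparisons with untreated mice of the 9-week cohort on the right, as points without a test, and dashed lines mark a fold change of 1.3. On the left every estimate lies between -0.26 and 0.12, and on the right Per2 lies at 0.89 and 1.11 and Npas2 at -0.53 and -0.52.

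The SCA7 groups were also compared with each other, to ask whether AAV-shA4 moved the clock genes against AAV-shSCR. The test found no such difference. In this comparison edgeR called 0 of 10 members and 0 of 14862 genes (0%), with 0 members at an unadjusted p under 0.05, against 8.22% of all genes, and DESeq2 called 0 members and 5 genes. The groups did not overlap for 0 members, against 1.49% of all genes. The differences ran from -0.08 for Dbp (95% interval -0.27 to 0.11) to 0.12 for Per1 (95% interval -0.07 to 0.31). For Hlf and Arntl, lower in both SCA7 groups than in WT mice, the differences were 0.05 (95% interval -0.05 to 0.16, edgeR adjusted p = 0.804) and -0.07 (95% interval -0.18 to 0.04, edgeR adjusted p = 0.760).

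Of the 21 other clock genes, Rora, Nfil3 and Cirbp differed between SCA7 and WT mice by the adjusted p alone, each by less than the fold limit. Rora, a ROR activator that is highly expressed in the cerebellum, fell by 0.18 with AAV-shSCR (edgeR adjusted p = 0.00915) and by 0.16 with AAV-shA4 (0.0208). Nfil3, a repressor at the D-box, fell by 0.36 (edgeR adjusted p = 0.00677) and by 0.32 (0.0162). Cirbp, a cold-inducible RNA-binding protein, rose by 0.34 (edgeR adjusted p = 0.0148) and by 0.28 (0.0433). In each comparison these were 3 of 21, 2 lower and 1 higher, against 15.5% and 13.6% of all genes. Without adjustment, 5 (AAV-shSCR) and 4 (AAV-shA4) had a p under 0.05, against 28.7% and 26.6%. Clock itself differed by 0.00 and -0.02, Cry1 by -0.10 and -0.18, Cry2 by -0.06 and -0.08, Bhlhe41 by 0.07 and 0.07 and Ciart by 0.23 and 0.28, with edgeR adjusted p from 0.236 for Cry1 with AAV-shA4 to 0.967 for Clock with AAV-shSCR. The median difference of the 21 genes was -0.02 and -0.0075.

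**Figure D3:**
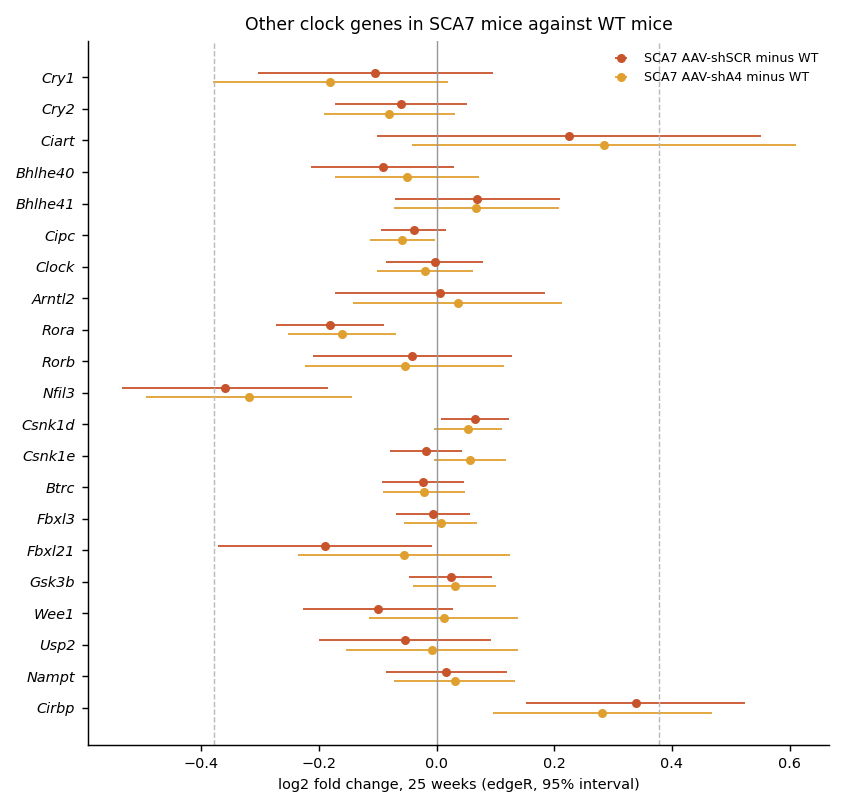
Log2 fold change of 21 other clock genes in SCA7 mice given AAV-shSCR or AAV-shA4 against untreated WT mice of the 25-week cohort (edgeR estimate and 95% interval, dashed lines at a fold change of 1.3). All estimates lie within the lines, with Nfil3 at -0.36 and -0.32, Cirbp at 0.34 and 0.28 and Ciart at 0.23 and 0.28.

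Mice of 1 condition differed from each other more in some members than in others. After the mean of each condition was removed, the SD of log2(CPM + 0.1) between mice was 0.22 for Per2, 0.18 for Dbp and Per1, 0.16 for Npas2 and 0.12 for Per3, and 0.07 to 0.09 for Tef, Nr1d2, Arntl, Hlf and Nr1d1. The median over 14643 genes was 0.09. Among genes within a factor of 2 of their own level, Per1, Per2 and Dbp stood at the 99.1, 98.9 and 99.0 percentile of this spread, Per3 at 95.1 and Tef at 90.3. Nr1d1 stood at 65.7 and Npas2 at 58.9. Over all 14643 genes the percentiles of Per1, Per2, Dbp, Per3 and Tef were 76.7, 81.8, 77.0, 64.6 and 50.7, and 0 of the 10 members were above the 90th percentile. These percentiles depend on the value added before the log: with 1 in place of 0.1 they were 89.8, 94.7, 90.2, 70.2 and 53.7.

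The deviations of the members were related to each other. Of the 45 pairs, 10 had an adjusted p under 0.05 both for Pearson's r and for Spearman's rho over the 20 mice (permutation within conditions, 100000 resamples, Benjamini-Hochberg over 45 pairs), with 6 positive and 4 negative. The share of such pairs among all genes was not computed, so the count has no background beside it and nothing is read from it. All 4 negative pairs held Arntl. Mice with more Per1 than the mean of their condition had less Arntl (r = -0.76, permutation p = 0.0023, adjusted p = 0.0207, and rho = -0.77). The same was found for Per3 (r = -0.74, permutation p = 0.00343, adjusted p = 0.0220, and rho = -0.82), for Tef (r = -0.69, permutation p = 0.00395, adjusted p = 0.0222, and rho = -0.75) and for Dbp (r = -0.55, permutation p = 0.00757, adjusted p = 0.0341, and rho = -0.68). Without the 2 mice farthest from the median of the first gene of the pair, r was -0.68, -0.74, -0.65 and -0.72.

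The positive pairs are given by the genes they share, and the limit on the adjusted p draws these sets. Dbp and Tef, both PAR bZIP activators, varied together (r = 0.76, permutation p = 5e-05, adjusted p = 0.00225, and rho = 0.78), as did Dbp and Per3 (r = 0.71, permutation p = 0.00023, adjusted p = 0.00517, and rho = 0.82) and Per3 and Tef (r = 0.77, permutation p = 0.00106, adjusted p = 0.0119, and rho = 0.76). Per2 went with Nr1d2 (r = 0.77, permutation p = 0.0006, adjusted p = 0.0090, and rho = 0.80), Hlf (r = 0.73, permutation p = 0.00668, adjusted p = 0.0334, and rho = 0.68) and Per1 (r = 0.67, permutation p = 0.00328, adjusted p = 0.0220, and rho = 0.60). Between Dbp, Tef or Per3 and Per2, Nr1d2, Hlf or Per1, r was also positive, from 0.21 (Dbp with Nr1d2) to 0.62 (Per1 with Per3). Of these, Per1 with Per3 and Tef with Hlf passed for rho alone (permutation, adjusted p = 0.0353 and 0.0488). Nr1d1 and Npas2 were in none of the 10 pairs. For the 6 positive pairs r was 0.65 to 0.73 without the 2 farthest mice. All 10 pairs had the same sign within the 14 late mice, where r ran from -0.78 to -0.57 and from 0.80 to 0.91, and 8 had it within the 6 early mice. The exceptions there were Per2 with Per1 (r = -0.06) and Per2 with Hlf (r = -0.15).

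**Figure D4:**
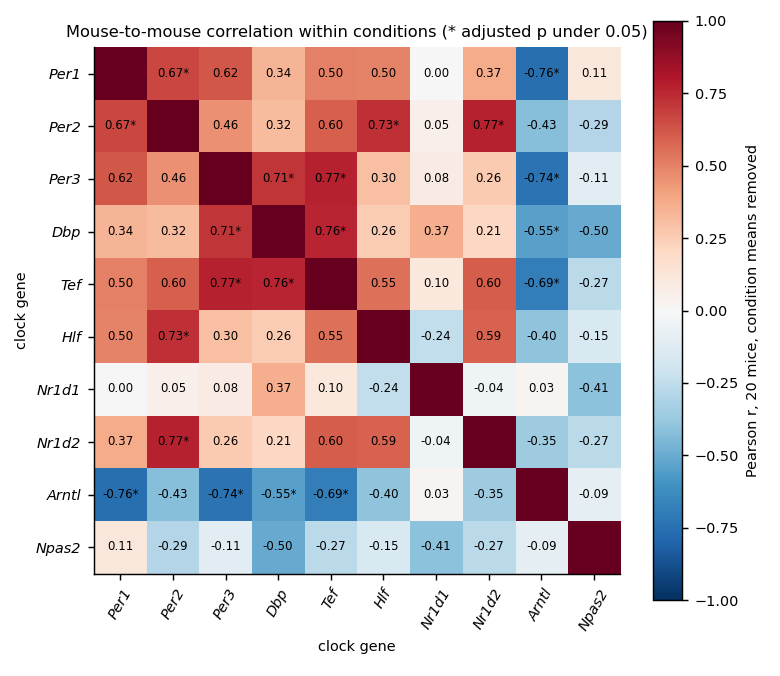
Pearson's r between the deviations of each pair of clock genes from the mean of the condition, log2(CPM + 0.1), over 20 mice, with blue for negative and red for positive values and a star at an adjusted p under 0.05. Arntl is negative with Per1 (-0.76), Per3 (-0.74), Tef (-0.69) and Dbp (-0.55), and the row of Nr1d1 holds no star.

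Among 14642 other genes, those whose deviations were most like Per2 over the 20 mice were Mxi1 (r = 0.88), Chst10 (0.87), Klhl42 (0.86), Snx30 (0.82) and Dync1li1 (0.81), while Nr1d2 ranked 13, Hlf 33 and Per1 67. Those most like Dbp were Bcar1 (0.87), Tspan4 (0.87), Ciart (0.85), Cib1 (0.85) and Ppp5c (0.84), with Tef at rank 29 and Per3 at 73. Ciart is the clock repressor whose promoter is printed above with 3 E-boxes. The window of Dbp held no match, and a link between these elements and the likeness was not tested. Those most like Arntl were Trim59 (0.79), Cd300lb (0.78), Nek3 (0.77), Pknox1 (0.74) and Mapt (0.72), while Per3 and Per1 ranked 14637 and 14638, near the opposite end. These ranks are a description of 20 mice, and the mice share library depth and dissection with all genes compared.

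**Figure D5:**
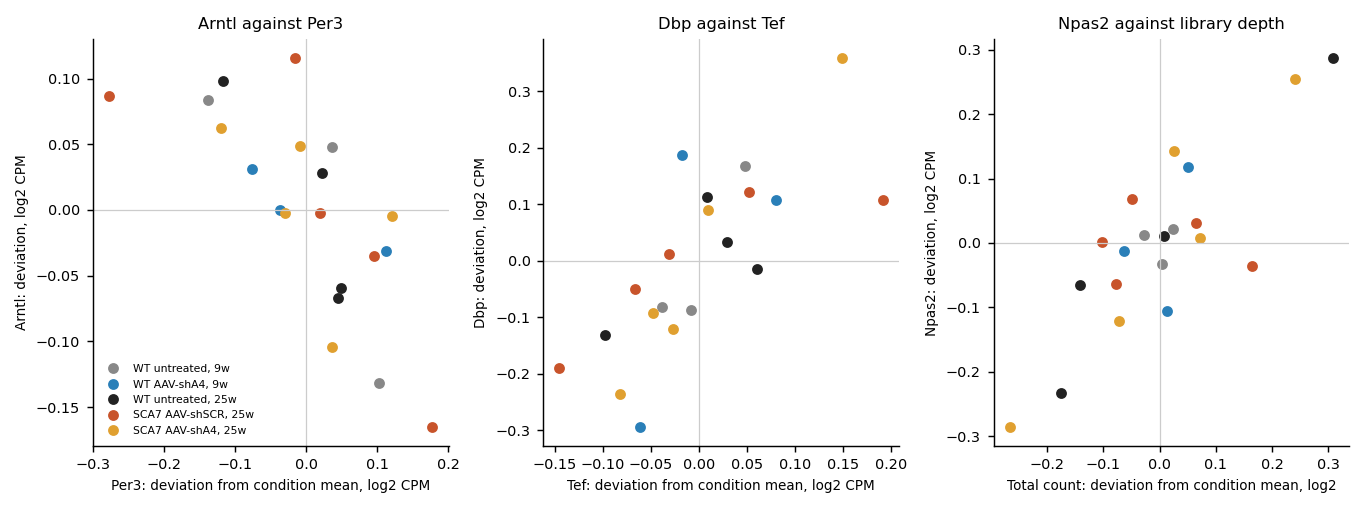
Deviation of each of the 20 mice from the mean of its condition, coloured by condition, for Arntl against Per3 and Dbp against Tef (log2 CPM on both axes) and for Npas2 against the total count of the library (log2). The points fall from left to right for Arntl (r = -0.74) and rise for Dbp (r = 0.76) and Npas2 (r = 0.83).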

How the data were processed

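Per the labels and the study's methods, the authors made stranded libraries from polyadenylated cerebellar RNA, trimmed single reads with cutadapt 1.10, removed ribosomal reads with Bowtie2 2.2.8, mapped to mm10 with STAR 2.5.3a and counted on Ensembl genes with HTSeq 0.6.1p1. The deposited values are raw counts of reads per gene for 55401 genes, with no normalization by the authors. Mice were grouped by their labels. Names, positions and exon lengths came from GENCODE M21, and 260 genes without an entry there were left out. The 21897 protein-coding genes were analysed with edgeR 4.0.16 in R 4.3.3 (TMM, filterByExpr with minimum count 10 and total 15, quasi-likelihood test), with the 14 late, the 6 early or, for the comparison across cohorts, all 20 libraries in 1 fit, and Benjamini-Hochberg adjustment over all genes tested. Calls needed a fold change over 1.3 with an adjusted p below 0.05. DESeq2 1.42.0 was an alternative. CPM were scaled by TMM over all libraries, and 0.1 was added on the log2 scale. The tests were tried on simulated data. Depth was 31465586 to 54570503 reads per library, and mice of 1 condition differed by more than counting noise (chi-squared per degree of freedom 4.73 to 25.1 over 32 pairs). Whether mice of 1 condition came from different litters is not stated. The members and lists were chosen with earlier results of these data known, and the lists of other clock genes and markers were written from general knowledge. The result of 1 gene of the clock list is not reported here. Named besides the members were called genes of the clock list with Cry1, Cry2, Clock, Ciart, Nfil3 and Bhlhe41, and the 5 genes most like Per2, Dbp and Arntl. Rora, Cirbp and the exons of overlapping genes were named after their values were seen.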

Additional observations from a re-analysis of the deposited data

Results flagged for a closer look

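Each member was tested in each group of 4 or 5 mice for a mouse far from the others, which gave 30 sets of values that share mice. In 2 of the 30 sets, 1 mouse stood apart by Dixon's test. Per2 was 70.6 CPM in WT replicate 4 of the 25-week cohort, against 56.8 to 58.9 in the other 3 mice, and Per3 was 67.4 CPM in WT replicate 3, against 74.3 to 75.7. Chance flags about 1 in 20 such sets.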

How the results depend on the processing

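The count of called members was 0 in each comparison among the late mice, and 3 members were past the fold at 9 weeks. Size factors of DESeq2, no filter on low counts, all annotated genes, only the groups compared and DESeq2's Wald test left these counts unchanged. No count of called members is given between the cohorts of untreated WT mice, since the 9-week mice chose the members. By the adjusted p alone the counts against WT mice were 2 with AAV-shSCR and 2 with AAV-shA4. With 1 mouse left out, the count at 9 weeks ranged from 2 to 5, with 5 without AAV-shA4 replicate 2 and 2 without untreated replicate 1. Of the pairs of members, 17 had an absolute r above 0.5, and 28 in the 14 late mice alone, and the share among pairs of all genes was not computed. The replicate numbers did not pair the mice (r of same-numbered mice from -0.23 to 0.51 over all comparisons, and best with its own number in 0 to 2 mice per comparison). With the replicate block the counts did not change (0, 0 and 0 called among the late mice, and 3 past the fold at 9 weeks). By the adjusted p alone, Hlf lost its call with AAV-shA4 (edgeR adjusted p = 0.0709) and Nr1d1 passed there (0.0431, and 0.0428 by DESeq2). The block turned the sign of Per3 with AAV-shSCR (-0.0031), and of Per3 (-0.012), Dbp (-0.0099) and Tef (-0.015) with AAV-shA4. Of the members near 0, the sign turned with 1 mouse left out: with AAV-shSCR against WT mice, Per1 -0.0636 to 0.0694, Per2 -0.0819 to 0.108, Per3 -0.02 to 0.0908, Tef -0.064 to 0.0219 and Npas2 -0.0577 to 0.125. With AAV-shA4 against WT mice the ranges were Per3 -0.0248 to 0.0423, Dbp -0.0788 to 0.0769, Tef -0.0295 to 0.0298 and Npas2 -0.111 to 0.0716. Between the SCA7 groups they were Per2 -0.0188 to 0.185, Per3 -0.0779 to 0.0328, Tef -0.0161 to 0.0733, Nr1d2 -0.023 to 0.0354 and Npas2 -0.122 to 0.012. Nr1d1 with AAV-shA4 passed without AAV-shA4 replicate 2 (edgeR adjusted p = 0.0461). Over all genes, the 9-week comparison had 8 calls by edgeR, 53 by DESeq2, 37 with the replicate block, 26 with no filter, 16 with all annotated genes and 20 with all libraries in the fit, and no call of it is used here. Counting depth limits Npas2 most, with 149 to 422 reads per library.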

Other observations

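The summed level of 9 immediate early genes was 136 to 224 CPM with AAV-shSCR and 177 to 232 with AAV-shA4, against 200 to 254 in WT mice of the 25-week cohort. Of these genes, edgeR called Fosb (-1.22), Nr4a1 (-0.60) and Egr1 (-0.49, log2) lower with AAV-shSCR and Fosb (-0.77) and Nr4a1 (-0.46) lower with AAV-shA4, against 4.02% and 3.45% of all genes in either direction. Of 7 genes induced by glucocorticoids, 4 were higher and 3 lower with AAV-shSCR (median 0.03, edgeR called 0, and 1 had an unadjusted p under 0.05), and 7 were higher with AAV-shA4 (median 0.24), of which edgeR called Fkbp5 (0.50, adjusted p = 0.0147). These genes were named after their values were seen. Over the 20 mice, the deviation of the summed immediate early genes correlated with that of Per1 at r = 0.44 (permutation p = 0.118, adjusted p = 0.369 over 30 relations) and rho = 0.41 (permutation p = 0.129, adjusted p = 0.473), and r was 0.19 without the 2 mice farthest from the median of the immediate early genes. For Npas2 and the summed PC markers r was -0.65 (permutation p = 0.0105, adjusted p = 0.157) and rho -0.58 (permutation p = 0.0249, adjusted p = 0.374), with r = -0.53 without 2 mice.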
